A study of Homo sapiens with 6 samples.

Results

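This section describes the genes of DNA damage signalling and homologous recombination in MDA-MB-231 cells given the compound TCI04. The set was a list of 45 genes, and a gene was taken from each probe set whose only annotated gene symbol was a listed name. Of the 45 genes, 40 were found among the 19775 genes with such a probe set, and the probe set with the highest mean over the 6 arrays stood for each gene. BRCA2, RBBP8, FANCA and FANCD2 were not analysed here. PMS2, a mismatch repair protein, was present only on 2 probe sets shared with its relative PMS2CL, which gave log2 fold changes of 0.18 and -0.20 and are not counted for either gene.

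MDA-MB-231 is a human breast cancer line, triple-negative and mesenchymal in character, that carries mutant p53. The cells were grown in medium with serum and treated for 48 h, one group with 50 µM TCI04, a compound given only as a code name, and the other with phosphate-buffered saline (PBS). Both groups were the same line, with no further allele or agent named, and total RNA from each was hybridised to 3 Affymetrix arrays. Whether the arrays of 1 group stand for separate cultures is not given in the labels. The p-values therefore speak only of the spread among these 6 arrays, part or all of which may be technical. In such bulk RNA, fewer cells with a transcript and less of it per cell cannot be told apart.

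A break across both strands of DNA is sensed by the MRE11-RAD50-NBN complex and by the Ku proteins. The kinases ATM and ATR then pass the signal to CHEK1 and CHEK2, which halt the cell cycle. The break is joined directly by end joining, or it is resected and copied from the sister chromatid by homologous recombination, in which the BRCA proteins take part. The Fanconi proteins direct the unhooking of DNA crosslinks and hand the resulting break to the same machinery. Many of these genes are transcribed most in S and G2 phase, and much of the damage response works through phosphorylation and ubiquitin, which an RNA array does not measure.

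Values are MAS5 signals, a linear summary of the probes of a probe set, which the authors had scaled so that the trimmed mean was 500.1 on every array. The median signal was 64.0 to 74.3 on the PBS arrays and 58.9 to 59.8 on the TCI04 arrays. Fold changes are TCI04 minus PBS on the scale log2(signal + 10.96), where the added constant shrinks differences between weak signals. They were tested with limma over the 32746 probe sets above a filter. The filter used the mean of the log2 values, with a cut-off that stands for a signal of about 33.9. A probe set with uneven signals could thus fall below it at a higher mean signal. The ratio of the 3' to the 5' probe set of ACTB, a sign of RNA integrity, was 1.64 to 1.72 on 5 arrays and 3.33 on TCI04 replicate 3. All 6 markers of the line (VIM, CD44, AXL, CAV1, MSN and TGFBI) were above the filter, with a summed signal of 93678 to 99810 with PBS and 94538 to 95963 with TCI04. Luminal markers summed to 3327 to 3780 and 2519 to 3582, and 6 of 8 were above the filter. They ranged from CDH1, the lowest, at 1.78 to 21.0, to KRT19 at 873 to 1793 and GATA3 at 683 to 995. Fibroblast markers summed to 624 to 641 and 506 to 705, leukocyte markers to 136 to 250 and 113 to 196, and endothelial markers to 277 to 284 and 211 to 251. Of these other cell types, 2 of 6, 2 of 4 and 2 of 4 markers were above the filter and none was at 0. Their part in the results was not tested.

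No gene of the set passed the threshold. Of the 39 members above the filter, 0 had an adjusted p under 0.05 (limma, Benjamini-Hochberg), and their adjusted p ran from 0.697 to 0.999. Over the whole table, 1 of 32746 probe sets passed (0.00305%), and it was not a member. The means were higher with TCI04 for 24 members and lower for 15. Their log2 fold changes ran from -0.34 for FANCE to 0.29 for LIG4, with a median of 0.03 beside a median of -0.002 over all 13674 genes fitted. The 95% interval lay within 1.5-fold in both directions for 36 of the 39 members (92.3%), beside 66.5% of all genes, and within 2-fold for all 39. The 3 members whose interval reached past 1.5-fold were FANCE, FANCG and XRCC2. The standard errors of the members were 0.06 to 0.25.

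**Figure D1:**
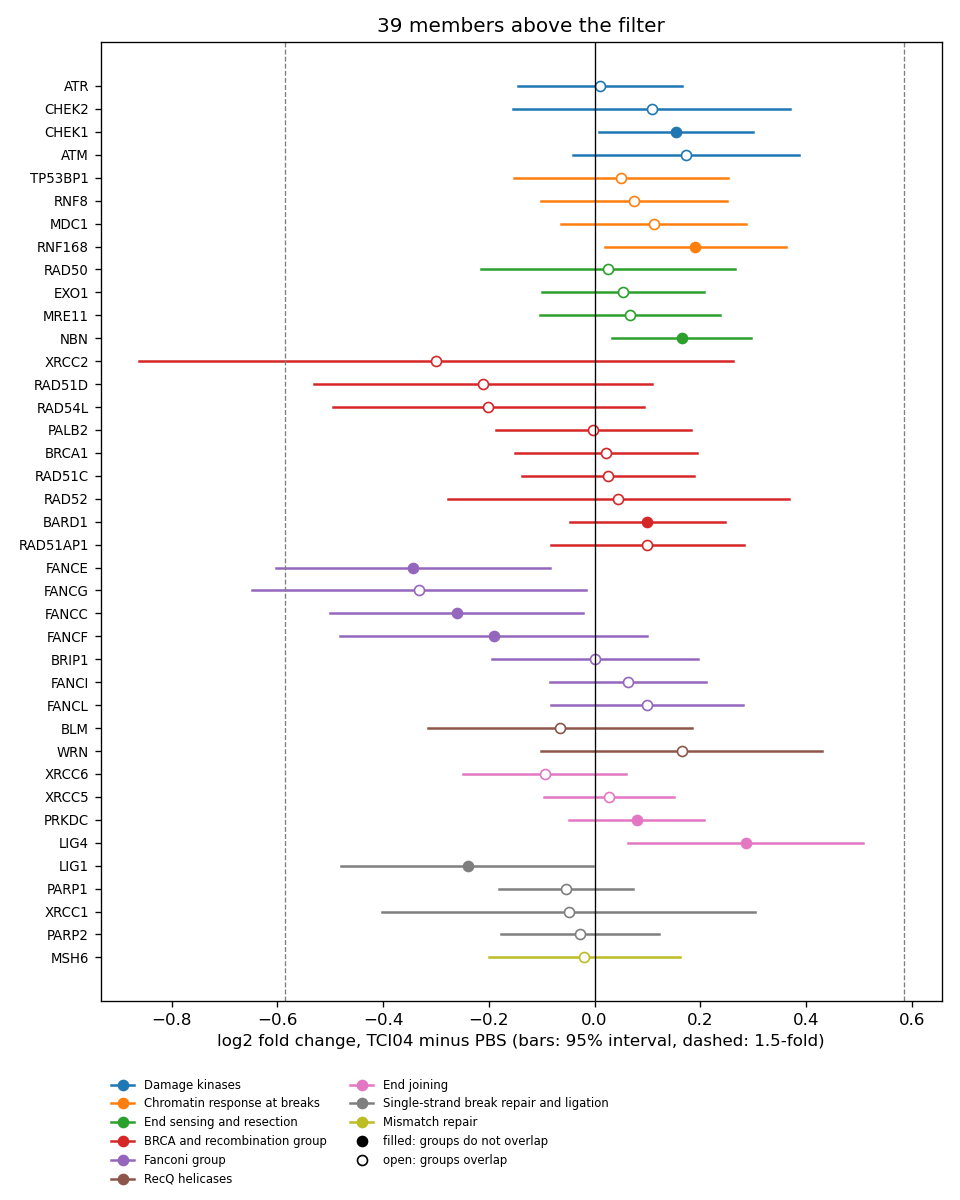
Log2 fold change of each of the 39 members above the filter (TCI04 minus PBS, points) with its 95% interval from limma (bars), coloured by role; filled points mark genes whose 3 TCI04 and 3 PBS arrays do not overlap, and dashed lines mark 1.5-fold. The points lie between -0.34 (FANCE) and 0.29 (LIG4), and the intervals of FANCE, FANCG and XRCC2 cross a dashed line.

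At an unadjusted p under 0.05 there were 8 members (20.5%), 4 with a higher and 4 with a lower mean, beside 7.05% of all genes fitted. The count depended on which arrays were used. It was 3, 5 and 4 without PBS replicate 1, 2 and 3, beside 7.11%, 5.93% and 4.86% of all genes. Without TCI04 replicate 1, 2 and 3 it was 1, 8 and 4, beside 6.31%, 8.15% and 6.14%. All TCI04 signals lay above all PBS signals in 6 of the 40 members found, beside 5.53% of all genes, and below them in 4, beside 7.56% of all genes. The first of these counts was 11 without PBS replicate 1, when 11.4% of all genes were so placed. Without TCI04 replicate 3, the array with the high ACTB ratio, 7 were higher (8.65% of all genes) and 5 lower (13.8%). How the arrays were scaled changed this split. Quantile normalization gave 6 higher and 5 lower members, beside 6.91% and 5.22% of all genes. Arrays centred on the median of the fitted probe sets gave 8 and 3, beside 9.05% and 4.87%. Centring on all probe sets, which raised the median of all genes to 0.16, gave 19 and 0, beside 22.3% and 2.54%. As deposited, the groups overlapped in the other 30 members. XRCC3, a homologous recombination protein, was the member below the filter, with signals of 32.1, 47.0 and 14.4 with PBS and 45.4, 6.96 and 32.9 with TCI04.

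On the chosen probe sets, the 4 damage kinases all had higher means with TCI04, by 0.01 to 0.17 on the log2 scale. ATR turned to -0.007 after quantile normalization, and none of the 4 passed the adjusted threshold. CHEK1, the effector kinase of ATR, was the one whose groups did not overlap. Its signals (Entrez Gene 1111) were 1805, 1835 and 1786 with PBS and 1964, 2002 and 2077 with TCI04. The 2 groups were apart by more than the spread within either, with means of 1809 ± 24.8 and 2014 ± 57.5 (SD, n = 3 arrays each), 1.11-fold higher. The log2 fold change of CHEK1 was 0.15 ± 0.07 (SE), and its 95% interval ran from 0.01 to 0.30 (limma, adjusted p = 0.697). Its other probe sets above the filter gave -0.07 and 0.04, and one below it gave -0.41.

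ATM, the kinase that answers to breaks across both strands, had signals of 1089, 1017 and 1134 with PBS and 1190, 1103 and 1375 with TCI04. TCI04 replicate 3 was the highest, and the lowest TCI04 array lay among the PBS arrays. The log2 fold change of ATM was 0.17 with a 95% interval from -0.04 to 0.39 (limma, adjusted p = 0.705), and 0.09 without TCI04 replicate 3. ATR, which answers to single-stranded DNA at stalled forks, had signals of 2207, 2055 and 2059 with PBS and 2008, 2170 and 2191 with TCI04. These ranges overlapped almost fully, and its log2 fold change was 0.01 with an interval from -0.14 to 0.17. CHEK2, the effector of ATM, had signals of 496, 438 and 397 with PBS and 449, 469 and 515 with TCI04, which also overlapped, and a log2 fold change of 0.11 with an interval from -0.15 to 0.37. Without PBS replicate 1 or 3 or TCI04 replicate 3 the CHEK2 value was 0.19, 0.03 or 0.05.

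The proteins that mark the chromatin around a break likewise all had higher means on the chosen probe sets. The log2 fold changes were 0.05 for TP53BP1, 0.07 for RNF8, 0.11 for MDC1 and 0.19 for RNF168. MDC1 reads phosphorylated histone H2AX, RNF8 and RNF168 attach ubiquitin there in turn, and TP53BP1 binds the modified chromatin and holds back resection. RNF168 had signals (Gene 165918) of 1590, 1770 and 1698 with PBS and 1887, 1829 and 2063 with TCI04. The lowest TCI04 array exceeded the highest PBS array, and the means were 1686 ± 90.7 and 1927 ± 122 (SD, n = 3). Its log2 fold change was 0.19 ± 0.08 (SE), and its interval ran from 0.02 to 0.36 (limma, adjusted p = 0.697). The other RNF168 probe set gave -0.12. In TP53BP1, MDC1 and RNF8 the groups overlapped. Other probe sets above the filter went the opposite way, at -0.36 and -0.08 for TP53BP1 and -0.42 for MDC1.

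The stretch upstream of the RNF168 start is shown because this gene had the second highest log2 fold change of the set. The stretch is taken from RefSeq (GRCh38.p14) at chr3:196503769-196504018, minus strand, and written 5′ to 3′ up to the base before the transcript start. None of the motifs searched for in the set's promoters, described with the Fanconi genes, had a match in it.
RNF168: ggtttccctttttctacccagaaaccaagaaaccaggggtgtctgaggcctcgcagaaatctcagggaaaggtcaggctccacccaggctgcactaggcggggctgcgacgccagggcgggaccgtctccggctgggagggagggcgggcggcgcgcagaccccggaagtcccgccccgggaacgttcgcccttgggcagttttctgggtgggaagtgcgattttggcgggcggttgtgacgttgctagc

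End sensing and resection gave the same picture of small positive values on the chosen probe sets. NBN (nibrin), which brings the MRE11 complex to ATM, had signals (Gene 4683) of 4850, 4636 and 4864 with PBS and 5635, 5261 and 5198 with TCI04. No arrays overlapped, with TCI04 replicate 1 the highest, and the means were 4783 ± 128 and 5365 ± 236 (SD, n = 3), 1.12-fold higher. For NBN the log2 fold change was 0.17 ± 0.06 (SE), and its interval ran from 0.03 to 0.30 (limma, adjusted p = 0.697). Its 4 other probe sets gave -0.05, 0.01, 0.06 and 0.08. The nuclease MRE11, the ATPase RAD50 and the exonuclease EXO1 had log2 fold changes of 0.07, 0.03 and 0.05 with overlapping groups. Other probe sets above the filter gave -0.16 for MRE11 and -0.07 and -0.11 for RAD50.

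In the group of BRCA proteins and other recombination factors, 5 of the 9 members above the filter had higher and 4 lower means, and the median log2 fold change was 0.02. BRCA1, the ubiquitin ligase subunit that promotes resection, had signals of 1540, 1488 and 1593 with PBS and 1442, 1624 and 1631 with TCI04. The TCI04 arrays spanned the whole PBS range. Its log2 fold change was 0.02 ± 0.08 (SE), and its interval ran from -0.15 to 0.19 (limma, adjusted p = 0.956).

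BARD1, the obligate partner of BRCA1, had signals (Gene 580) of 1824, 1953 and 1855 with PBS and 1996, 2034 and 2007 with TCI04. The groups did not overlap, though the highest PBS array came close to the lowest TCI04 array. BARD1 had a log2 fold change of 0.10 with an interval from -0.05 to 0.25 (limma, adjusted p = 0.731), and its other probe sets gave -0.01 and -0.002. PALB2, which joins BRCA1 to BRCA2, had a log2 fold change of -0.002 with an interval from -0.19 to 0.18.

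RAD51C, RAD51D and XRCC2, which act in homologous recombination, had log2 fold changes of 0.03, -0.21 and -0.30. The lowest of these, XRCC2, was also the least precise member, with signals of 195, 200 and 106 with PBS and 152, 133 and 105 with TCI04 and an interval from -0.86 to 0.26. With 1 array left out, the XRCC2 value ran from -0.58 without PBS replicate 3 to -0.15 without PBS replicate 2, and that of RAD51D was -0.10 without PBS replicate 3. The recombination cofactor RAD51AP1 gave 0.10, RAD52, which anneals single strands, 0.05, and RAD54L, which drives strand invasion, -0.20. For RAD54L the signals were 471, 521 and 559 with PBS and 505, 474 and 373 with TCI04, so that TCI04 replicate 3 alone lay well below the PBS arrays, and without it the log2 fold change was -0.07.

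The lowest values of the set lay in the Fanconi group, where 4 of 7 members found had lower means and the median log2 fold change was -0.19. FANCE, which bridges the core complex to its substrate, had signals (Gene 2178) of 679, 721 and 738 with PBS and 660, 530 and 499 with TCI04. The groups did not overlap, but TCI04 replicate 1 lay close to the PBS arrays. The means of FANCE were 713 ± 30.6 and 563 ± 85.5 (SD, n = 3), 1.27-fold lower. Its log2 fold change was -0.34 ± 0.12 (SE), and its interval ran from -0.60 to -0.09 (limma, adjusted p = 0.697). FANCE had no other probe set above the filter.

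FANCC, the partner of FANCE in the core complex, had signals (Gene 2176) of 486, 432 and 493 with PBS and 399, 378 and 393 with TCI04. All TCI04 arrays were below all PBS arrays, with means of 470 ± 33.5 and 390 ± 10.8 (SD, n = 3), 1.21-fold lower. For FANCC the log2 fold change was -0.26 ± 0.11 (SE), and its interval ran from -0.50 to -0.02 (limma, adjusted p = 0.697). Its other probe set above the filter, at a mean signal of only 45.0, gave -0.25 (limma, unadjusted p = 0.513). One below the filter, at a mean signal of 24.2, gave 0.29.

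FANCF, an adaptor of the core complex, had signals (Gene 2188) of 270, 268 and 245 with PBS and 221, 233 and 228 with TCI04. These did not overlap, and the log2 fold change was -0.19 with an interval from -0.48 to 0.10 (limma, adjusted p = 0.743). Its other probe set gave 0.30, in the opposite direction. FANCG, another core subunit, had signals (Gene 2189) of 932, 778 and 827 with PBS and 625, 844 and 563 with TCI04. Here TCI04 replicate 2 lay among the PBS arrays while the other 2 were below them. The log2 fold change was -0.33 ± 0.14 (SE), and its interval ran from -0.65 to -0.02 (limma, adjusted p = 0.697). It was -0.50 without TCI04 replicate 2 and -0.21 without TCI04 replicate 3.

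The other Fanconi genes had values near 0 on the chosen probe sets. FANCL, the ubiquitin ligase of the core complex, had a log2 fold change of 0.10 with an interval from -0.08 to 0.28, so the core subunits did not all share a sign. FANCI, a substrate of that ligase, had 0.06, and the helicase BRIP1 had 0.001 with an interval from -0.19 to 0.20. Other probe sets above the filter gave -0.085 and 0.040 for FANCI and 0.207 for BRIP1 (limma, unadjusted p = 0.0591). Of the 5 core subunits measured, a grouping chosen after the values were seen, 4 had lower means.

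The upstream stretches of FANCE and FANCC are shown by the same rule as that of RNF168. In limma their unadjusted p was 0.014 for FANCE, which had the lowest log2 fold change of the set, and 0.0355 for FANCC. The FANCC stretch happened to hold matches to both cell cycle motifs searched for. Both stretches are from RefSeq (GRCh38.p14), written 5′ to 3′ up to the base before the transcript start. FANCE is at chr6:35452088-35452337 on the plus strand and FANCC at chr9:95317710-95317959 on the minus strand. Capitals in FANCC mark the CHR letters TTTGAA, which begin 248 bases before the start, and the E2F letters TTTCCCGC, which begin 46 bases before it.
FANCE: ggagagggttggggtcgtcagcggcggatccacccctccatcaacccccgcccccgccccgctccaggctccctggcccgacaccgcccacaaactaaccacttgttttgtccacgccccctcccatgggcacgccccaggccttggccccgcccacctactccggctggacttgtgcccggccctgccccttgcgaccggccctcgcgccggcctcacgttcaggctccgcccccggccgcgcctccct
FANCC: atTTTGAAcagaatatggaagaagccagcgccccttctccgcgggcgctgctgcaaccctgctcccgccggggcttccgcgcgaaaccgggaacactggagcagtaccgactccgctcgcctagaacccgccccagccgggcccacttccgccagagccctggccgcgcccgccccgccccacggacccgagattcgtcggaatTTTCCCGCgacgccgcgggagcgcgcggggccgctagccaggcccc

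Promoters of 35 of the 40 members were in the RefSeq table, and the 250 bases before each start were searched on both strands. A gene with several listed starts was counted if any of them held the motif. The E2F motif, searched as TTTCCCGC or TTTGGCGC, was in 2 of the 35, FANCC and LIG1 (5.71%), beside 2.36% of 27305 genes. The cell cycle homology element (CHR), searched as TTTGAA, was in 5 members (14.3%), beside 16.1% of genes. CCAAT, the site of the factor NF-Y, was in 19 members (54.3%), beside 37% of genes, and the 19 include CHEK1, LIG4, BRCA1, ATM and FANCF. No member held the NRF1 motif, found in 1.28% of genes, or a paired p53 site, found in 0.033%. The motifs could overlap, and a match says only that these letters are in the window.

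**Figure D2:**
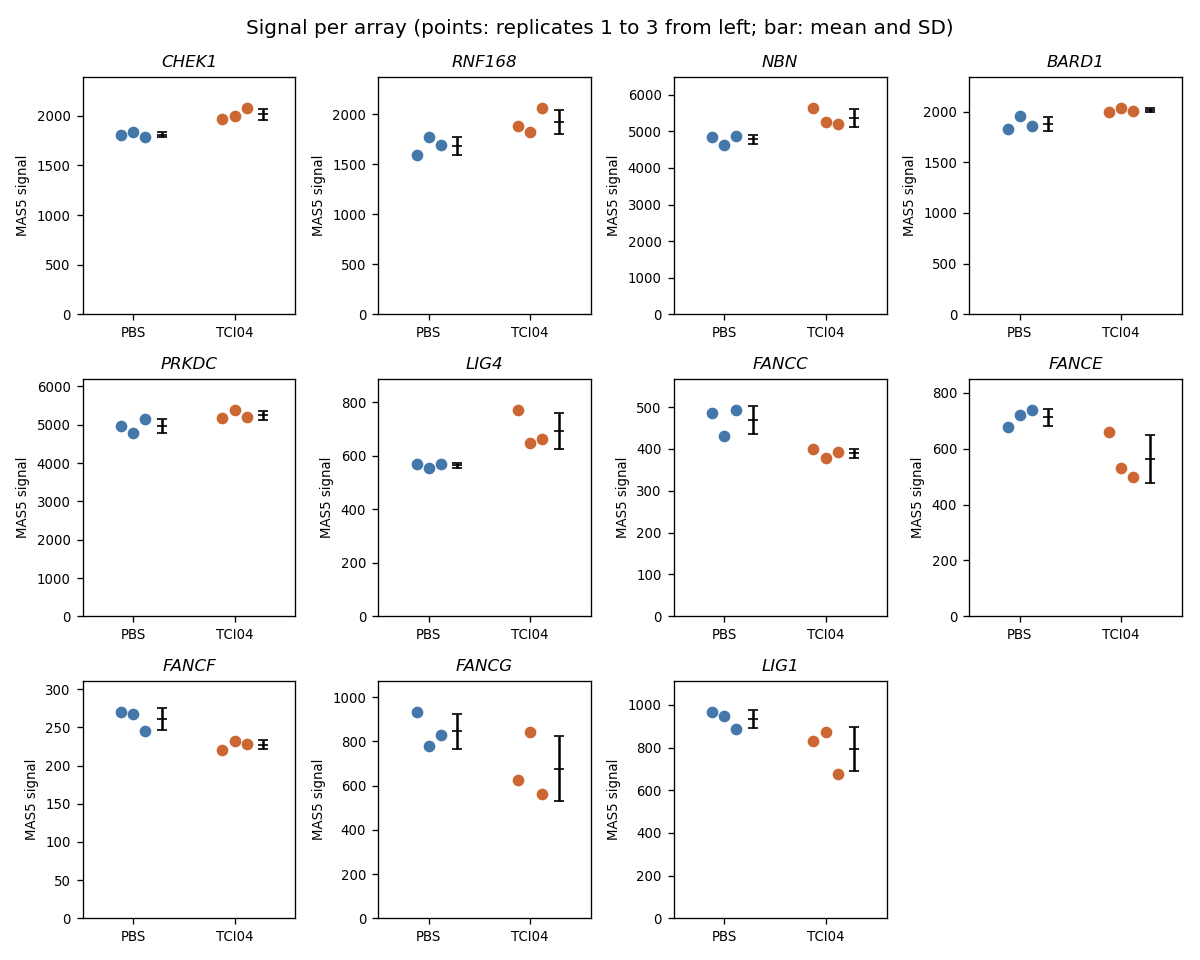
MAS5 signal on each array (points) with mean and SD (bars) for the 11 members whose groups did not overlap or whose unadjusted p was under 0.05, on axes that start at 0. The TCI04 points are higher for CHEK1, RNF168, NBN, BARD1, PRKDC and LIG4 and lower for FANCC, FANCE, FANCF and LIG1, while FANCG has TCI04 replicate 2 among its PBS points.

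The RecQ helicases of the set, which unwind recombination intermediates, had overlapping groups, with log2 fold changes of -0.07 for BLM and 0.17 for WRN. The WRN value was 0.08 without PBS replicate 2 or TCI04 replicate 1, and 0.25 without PBS replicate 3 or TCI04 replicate 2.

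Among the end joining genes, LIG4 had the highest log2 fold change of the whole set. LIG4 is the ligase that seals the joined ends. Its signals (Gene 3981) were 571, 554 and 570 with PBS and 771, 647 and 662 with TCI04. The PBS arrays lay close together and every TCI04 array was above them, with means of 565 ± 9.30 and 693 ± 67.5 (SD, n = 3), 1.23-fold higher. The log2 fold change of LIG4 was 0.29 ± 0.10 (SE), and its interval ran from 0.06 to 0.51 (limma, adjusted p = 0.697). Its other probe set above the filter gave -0.10.

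The LIG4 start lies 43 bases from that of ABHD13, a gene transcribed the other way, so only the bases between them are shown, from RefSeq (GRCh38.p14) at chr13:108218350-108218391, minus strand, 5′ to 3′. ABHD13 is not a gene of DNA repair and was looked at after the LIG4 value was seen. Its signals were 176, 158 and 143 with PBS and 171, 240 and 193 with TCI04, which overlapped, with a log2 fold change of 0.32 (limma, adjusted p = 0.705).
LIG4: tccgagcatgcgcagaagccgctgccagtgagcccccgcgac

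PRKDC, the catalytic subunit of the DNA-dependent protein kinase, had signals (Gene 5591) of 4976, 4777 and 5152 with PBS and 5167, 5382 and 5206 with TCI04. The groups did not overlap, but the highest PBS and lowest TCI04 arrays nearly met. PRKDC had a log2 fold change of 0.08 ± 0.06 (SE), and its interval ran from -0.05 to 0.21 (limma, adjusted p = 0.753). Its other probe set above the filter gave 0.11, and one below it, at a mean signal of 36.0, gave -1.36. The Ku subunits XRCC5 and XRCC6, which ring the broken end, had log2 fold changes of 0.03 and -0.09 with overlapping groups.

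The genes of single-strand break repair and ligation all had lower means in the deposited scaling, with log2 fold changes from -0.24 to -0.03, but XRCC1 turned positive after quantile normalization and PARP1, PARP2 and XRCC1 with median centring. LIG1, which joins Okazaki fragments and repair patches, had signals (Gene 3978) of 966, 950 and 885 with PBS and 831, 874 and 675 with TCI04. The groups did not overlap, the highest TCI04 array lying just under the lowest PBS array, and the means were 934 ± 42.7 and 793 ± 105 (SD, n = 3), 1.18-fold lower. For LIG1 the log2 fold change was -0.24 ± 0.11 (SE), and its interval ran from -0.48 to -0.002 (limma, adjusted p = 0.697). Without TCI04 replicate 3 the value was -0.13. LIG1 had no other probe set above the filter.

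PARP1, which senses nicks and is the main target of PARP inhibitors, had signals of 4547, 4633 and 4810 with PBS and 4568, 4532 and 4370 with TCI04. The groups overlapped, and the log2 fold change was -0.05 ± 0.06 (SE), and its interval ran from -0.18 to 0.07 (limma, adjusted p = 0.827). PARP2 and the scaffold protein XRCC1 had log2 fold changes of -0.03 and -0.05. Other PARP2 probe sets above the filter gave 0.05 and -0.03. MSH6, the mismatch repair member, had -0.02 with an interval from -0.20 to 0.16.

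By array and in the deposited scaling, the median deviation of a role group from the mean of the 6 arrays kept the groups apart in 5 of the 7 roles with at least 4 measured members. In the Fanconi group it was 0.10, 0.01 and 0.01 with PBS and -0.08, -0.06 and -0.09 with TCI04. For the damage kinases it was -0.01, -0.06 and -0.07 with PBS and 0.01, 0.03 and 0.14 with TCI04, TCI04 replicate 3 being the highest. The medians over all 39 members, at 0.01, -0.03 and -0.001 with PBS and -0.001, -0.001 and 0.05 with TCI04, were not apart by more than their spread. In 2 of the roles kept apart the nearest arrays almost met. They were at -0.006 (PBS) and 0.005 (TCI04) for the damage kinases, and 0.016 (PBS) and 0.007 (TCI04) for single-strand break repair. These are descriptions of lists of 4 to 9 genes, with no test and no share for other lists of that size. They rest on the chosen probe sets, and 22 of the 37 other probe sets above the filter had the opposite sign.

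**Figure D3:**
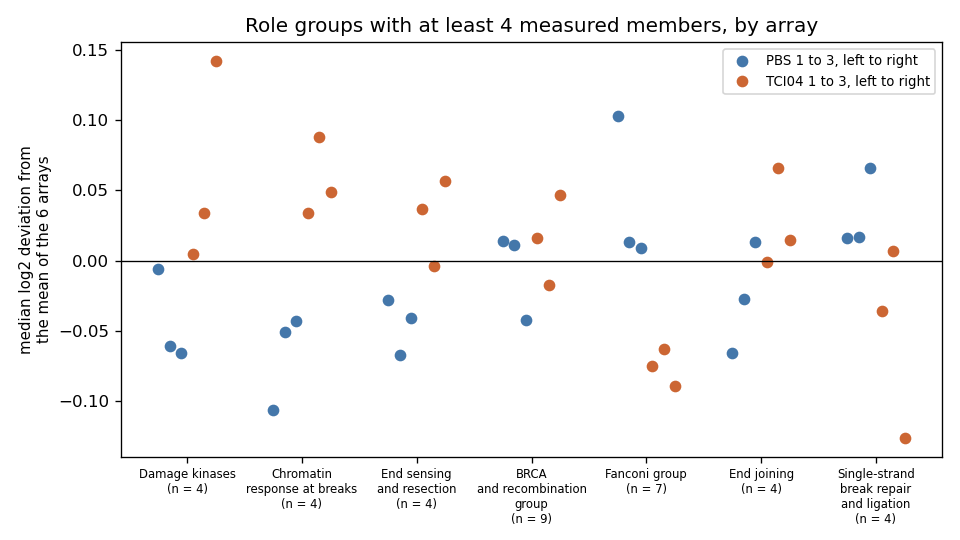
Median log2 deviation of each role group from the mean of the 6 arrays, 1 point per array, for the 7 roles with at least 4 measured members. The TCI04 points lie above the PBS points for damage kinases, chromatin response and end sensing, and below them for the Fanconi group and for single-strand break repair in the deposited scaling, while the BRCA and recombination group and end joining overlap.

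Members whose groups lay apart downward had mean signals from 200 to 1000, and those apart upward were mostly above 1000. Of the 13 members with a mean signal of 200 to 1000, 4 were lower and 1 higher with no overlap, where 7.7% and 6.37% of all genes of that class were. Of the 19 members from 1000 to 5000, 0 were lower and 3 higher, where 3.43% and 11.7% of all genes were. Of the 5 members above 5000, 0 were lower and 2 higher, where 3.98% and 6.09% of all genes were. All 4 Fanconi genes with lower means were in the class from 200 to 1000. The part of signal level in these values was not tested.

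Other probe sets of the same genes gave a check that did not use the chosen ones. Of 89 probe sets of the members, 49 had not been chosen, and 37 of these, in 24 members, were above the filter. Their sign was that of the chosen probe set in 15 and the opposite in 22, and 0 had an unadjusted p under 0.05 in limma. For the 11 members described with full values, 8 had such a probe set, and of 13 probe sets 6 had the same sign and 7 the opposite. ATM, whose chosen probe set gave 0.17, had others from -0.46 to 0.11. When the probe sets of a gene above the filter were averaged, 1 member was higher (4.97% of all genes) and 2 were lower (9.14%) with no overlap, and the median log2 fold change was -0.002. ATM, BRCA1, MDC1, TP53BP1, MRE11, RAD50 and XRCC5 then turned negative and FANCF turned to 0.05, while CHEK1 and PRKDC stayed positive at 0.04 and 0.09. With the probe sets below the filter averaged in as well, CHEK1, PRKDC and RAD52 also turned negative, 0 members were higher (3.95% of all genes) and 5 lower (9.62%) with no overlap, and the median was -0.05.

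**Figure D4:**
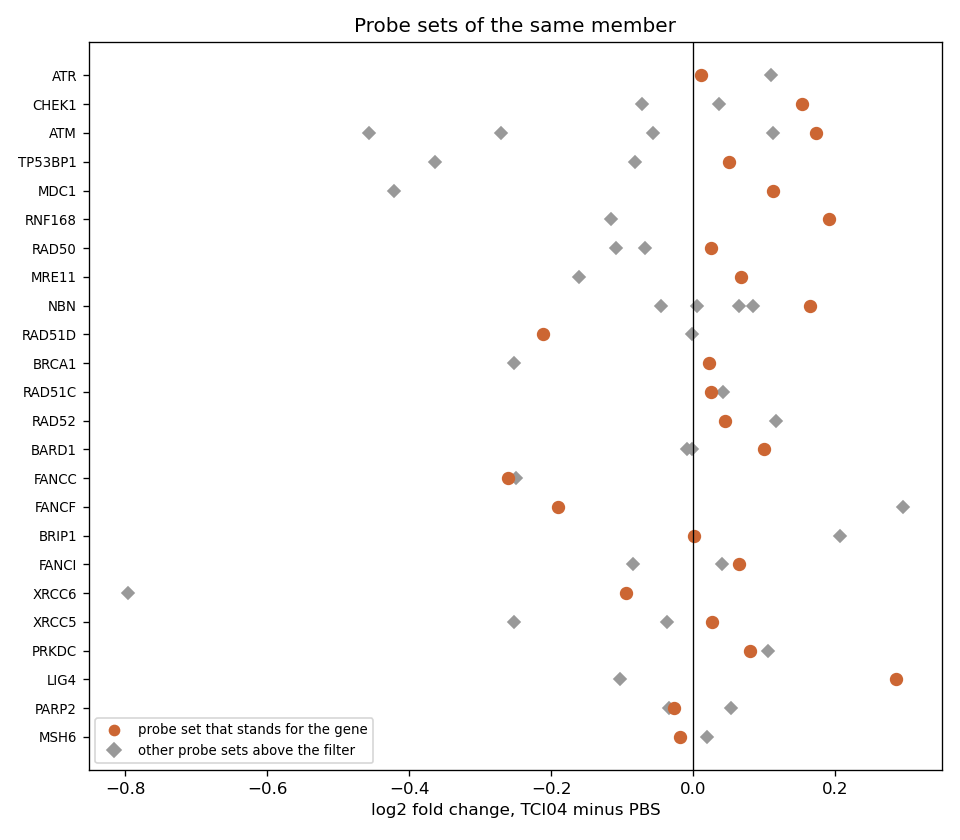
Log2 fold change (TCI04 minus PBS) of the probe set that stands for each gene (circles) and of the gene's other probe sets above the filter (diamonds), for the 24 members that have one. The diamonds lie on the opposite side of 0 in 22 of 37 cases. FANCC, at -0.26 and -0.25, is one where they lie together, though its diamond is of low signal (mean 45.0).

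No gene of the wider pathway passed either. Of 82 further genes of damage signalling, replication stress, recombination, end joining and excision repair, 74 were found and 73 tested, and 0 passed the adjusted threshold (limma). Their means were higher for 41 and lower for 32, with a median log2 fold change of 0.01. At an unadjusted p under 0.05 there were 3 (4.11%), beside 7.05% of all genes fitted. Of the 74 found, the groups did not overlap in 3 higher and 5 lower, beside 5.53% and 7.56% of all genes.

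RECQL4, a RecQ helicase of replication, had signals of 584, 665 and 563 with PBS and 388, 269 and 436 with TCI04, with no overlap. This was the largest value among these genes, a log2 fold change of -0.73 ± 0.17 (SE; limma, adjusted p = 0.697). RAD54B, a relative of RAD54L, had signals of 1057, 861 and 922 with PBS and 1064, 1078 and 1183 with TCI04, with no overlap, and a log2 fold change of 0.23 (limma, adjusted p = 0.697). MSH3, a mismatch repair protein, had a log2 fold change of 0.44 with overlapping groups (limma, adjusted p = 0.697), which was 0.66 without PBS replicate 1 and 0.22 without PBS replicate 3. The helicase MCM9, the end-cleaning enzyme TDP1 and the ligase LIG3 had log2 fold changes of -0.26, -0.18 and 0.23.

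Genes that p53 switches on after damage gave 6 higher and 5 lower means among 11 tested, with a median of 0.02. In limma 0 passed the adjusted threshold, while 2 (18.2%) had an unadjusted p under 0.05, beside 7.05% of all genes fitted. CDKN1A, the cell cycle inhibitor, had signals of 411, 442 and 572 with PBS and 467, 585 and 566 with TCI04, which overlapped. SESN2 and PLK3, both stress-induced, had log2 fold changes of -0.42 and -0.59, each with adjusted p = 0.697 in limma and no overlap. Of 19 proliferation genes, given because many repair genes are tied to S and G2 phase, 12 had higher means, with a median log2 fold change of 0.04 and values from -0.19 to 0.10. In 3 of them (15.8%), CCNE2, TOP2A and BUB1, the TCI04 arrays were all above the PBS arrays, beside 5.53% of all genes. That share was 11.7% among genes with a mean signal of 1000 to 5000, where CCNE2 and BUB1 lay. It was 6.09% among those above 5000, where TOP2A lay. Of the 19, 0 had an unadjusted p under 0.05, beside 7.05% of all genes fitted.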

How the data were processed

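RNA of 3 PBS and 3 TCI04 samples was measured on 6 arrays. For each array the authors deposited 1 linear intensity per probe set, which the submitters' processing notes credit to MAS5. The MAS5 version is not given in the sources used here, nor are detection calls. The number of arrays limits the precision. Of 54675 probe sets, 62 were controls. The platform annotation gave 41091 probe sets 1 symbol, 1801 several and 11777 none, and only those with 1 symbol were named.

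Signals were converted to log2(signal + 10.96), the 20th percentile. Controls and probe sets below the 40th percentile of mean level were left out. TCI04 was compared with PBS by lmFit and eBayes with trend (limma 3.58.1, R 4.3.3), two-sided and with 10.5 degrees of freedom, with Benjamini-Hochberg adjustment over all 32746 probe sets and a threshold of 0.05. The steps were tested on simulated data.

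Members, role groups and lists were chosen with earlier results of these data known. Full values were given for members with non-overlapping groups or an unadjusted p under 0.05, and signals for BRCA1, ATM, ATR, CHEK1, CHEK2, PARP1 and PRKDC. Further pathway genes were named by the smallest p, up to 3 in each direction. SESN2, PLK3, CCNE2, TOP2A and BUB1 were chosen after their values were seen. The labels do not say whether arrays with the same replicate number are paired, and the main fit did not pair them. Alternatives covered scaling, offset, filter, choice of probe set, variance model, replicate block and each array left out, with the probe set that stands for a gene kept as chosen over all 6 arrays.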

Additional observations from a re-analysis of the deposited data

How the results depend on the processing

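In 20 alternatives, 0 members passed the adjusted threshold in limma, and the lowest adjusted p was 0.28. Of 39 members, 18 had 1 sign throughout, wherever they were measured, and 21 changed it at least once. The cause of these changes was not tested, except that averaging or leaving out probe sets uses other probes.

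Scaling moved the set most. Centring each array on the median of all probe sets moved the median of all genes by over 0.1, to 0.16, and that of the members to 0.185. Then 19 members were higher and 0 lower with no overlap, beside 22.3% and 2.54% of all genes. An unadjusted p under 0.05 was found for 15 members, beside 19.4% of all genes. BLM turned to 0.094, MSH6 to 0.141, PALB2 to 0.158, PARP1 to 0.105, PARP2 to 0.132, XRCC1 to 0.111 and XRCC6 to 0.066. Centring on the fitted probe sets, chosen after seeing the data, gave a median of 0.086 (all genes 0.058). It gave 5 members with an unadjusted p under 0.05, beside 7.64% of all genes. It turned MSH6 to 0.041, PALB2 to 0.058, PARP1 to 0.006, PARP2 to 0.033 and XRCC1 to 0.011. Quantile normalization turned ATR to -0.007, BRIP1 to -0.020, PALB2 to 0.001 and XRCC1 to 0.026.

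When all probe sets of a gene were averaged, the median was -0.051 and 0 members were higher with no overlap, beside 3.95% of all genes. This turned ATM to -0.133, BRCA1 to -0.116, CHEK1 to -0.072, FANCF to 0.053, LIG3 to -0.066, MCM9 to 0.060, MDC1 to -0.155, MRE11 to -0.310, PRKDC to -0.390, RAD50 to -0.051, RAD52 to -0.016, TP53BP1 to -0.375 and XRCC5 to -0.087. Averaging only those above the filter, chosen after seeing the data, gave a median of -0.002. It gave 1 member higher and 2 lower with no overlap, beside 4.97% and 9.14% of all genes. It gave 3 with an unadjusted p under 0.05, beside 6.61% of all genes. It turned ATM to -0.100, BRCA1 to -0.116, FANCF to 0.053, LIG3 to -0.066, MDC1 to -0.155, MRE11 to -0.047, MSH6 to 0.000, RAD50 to -0.051, TDP1 to 0.008, TP53BP1 to -0.132 and XRCC5 to -0.087. Without probe sets ending in _x_at or _s_at, 2 members were lower with no overlap, beside 7.67% of all genes. FANCF then turned to 0.296, MRE11 to -0.161, RAD50 to -0.068, TDP1 to 0.198 and XRCC5 to -0.252.

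Array weights turned BRCA1 to -0.006, BRIP1 to -0.031, MSH6 to 0.022, PALB2 to 0.001 and RAD50 to -0.037. Without a variance trend, 3 members had an unadjusted p under 0.05, beside 5.32% of all genes. With the replicate number as a block, 7 did, beside 8.5% of all genes, and the median stayed 0.025. After the group means were removed, the correlations of same-numbered PBS and TCI04 arrays were 0.00356, 0.0619 and 0.0498. Those of the other PBS and TCI04 pairs ran from -0.0608 to 0.0092.

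With each array left out, the members' median was 0.011 to 0.055. In these fits 6 to 11 members were higher with no overlap, beside 8.65% to 11.4% of all genes. An unadjusted p under 0.05 was found for 1 to 8 members, beside 4.86% to 8.15% of all genes. Over these fits ATR ran from -0.013 to 0.050, BLM from -0.172 to 0.017, BRCA1 from -0.009 to 0.080, BRIP1 from -0.093 to 0.058, MSH6 from -0.101 to 0.042, PALB2 from -0.043 to 0.027, PARP2 from -0.078 to 0.016, RAD50 from -0.059 to 0.098, RAD51C from -0.028 to 0.056, RAD52 from -0.044 to 0.122, TP53BP1 from -0.017 to 0.110, XRCC1 from -0.149 to 0.032 and XRCC5 from -0.014 to 0.054.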

Other observations

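Of the members, 14 have a RefSeq start of a gene on the other strand within 1000 bases, a comparison chosen after the values were seen. In 10 pairs both genes were measured, and in 8 they had the same sign. NBR1, whose start lies 82 bases from that of BRCA1, had signals of 4052, 4263 and 4381 with PBS and 4573, 4541 and 4503 with TCI04, which did not overlap, and a log2 fold change of 0.10 (limma, adjusted p = 0.707). BRCA1 itself had 0.02. NPAT, a regulator of histone genes that shares its upstream region with ATM at a distance of 429 bases, had a log2 fold change of 0.05 beside 0.17 for ATM. MAP1A, 314 bases from TP53BP1, had -0.41 on signals of 50.3 to 99.4, beside 0.05 for TP53BP1.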
